A study of Mus musculus with 24 samples.

Results

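The genes described are 10 that encode plasma apolipoproteins or lecithin-cholesterol acyltransferase (LCAT), taken by name from the 25361 genes of the deposited table. They are Apoa1, Apoa2, Apoa4, Apob, Apoc3, Apoe, Apof, Apoh, Apom and Lcat, and all 10 names were found. Their levels were read in 24 RNA-seq libraries of mouse embryonic liver at embryonic day (E) 12.5. Livers were dissociated and split with CD146 beads into CD146+ liver sinusoidal endothelial cells (LSECs) and the remaining cells (non-EC liver cells). Each fraction gave 12 libraries, 3 for each of 4 genotypes, and each library is from a single embryo. Chd4-ECko embryos were Chd4 fl/fl with VE-cadherin-Cre and, by the cross used, 1 floxed Brg1 allele. Brg1-ECko embryos were Brg1 fl/fl with VE-cadherin-Cre and 1 floxed Chd4 allele. Brg1/Chd4-ECdko embryos were homozygous for both floxed genes and carried VE-cadherin-Cre. Controls were Cre-negative littermates, so they too carried floxed alleles of both genes. CHD4 and BRG1 are the catalytic subunits of the NuRD and SWI/SNF chromatin-remodeling complexes. VE-cadherin-Cre uses an endothelial promoter and is also active in some blood cells, so the hepatoblasts that make these proteins are not its target.

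Apolipoproteins coat the lipid particles of plasma. APOB is the structural protein of very-low-density and low-density lipoproteins, APOA1 and APOA2 are the main proteins of high-density lipoprotein (HDL), and LCAT esterifies cholesterol on HDL with APOA1 as its activator. The liver secretes most of them. In the embryo they come from hepatoblasts, the forerunners of hepatocytes, which share the organ with large numbers of blood-forming cells. The non-EC fraction is therefore a mixture, and in bulk RNA of such a mixture fewer cells of a type and less RNA per cell cannot be told apart.

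Apoa1, Apoc3 and Apoa4 lie beside Apoa5, which is not among the 10 genes, within 43.34 kb of chromosome 9 (GRCm39 chr9:46139878-46183217). Apoe lies with Apoc1, Apoc4 and Apoc2 within 29.44 kb of chromosome 7 (chr7:19405504-19434947). The others are single genes: Apoa2 (chr1:171049125-171053948), Apob (chr12:8027648-8066835), Apof (chr10:128098450-128106031), Apoh (chr11:108233964-108305232), Apom (chr17:35347973-35351026) and Lcat (chr8:106665839-106670046). Apoa2 overlaps Tomm40l and Apoh overlaps Prkca on the other strand, and whether reads were counted by strand is not given in the sources used here. The 250 bases just before the annotated start are printed for 3 genes. Apoa1 and Apoa4 are shown because they lie in 1 cluster with very different levels, and Apob because it had the widest spread between non-EC libraries of the 8 tested genes. The windows are chr9:46139628-46139877, chr9:46151744-46151993 and chr12:8027398-8027647 of GRCm39, each on the plus strand and written 5′ to 3′, with starts from GENCODE. Capitals mark a TATAAA, or an ATTAAC, which is GTTAAT read on the other strand.
Apoa1: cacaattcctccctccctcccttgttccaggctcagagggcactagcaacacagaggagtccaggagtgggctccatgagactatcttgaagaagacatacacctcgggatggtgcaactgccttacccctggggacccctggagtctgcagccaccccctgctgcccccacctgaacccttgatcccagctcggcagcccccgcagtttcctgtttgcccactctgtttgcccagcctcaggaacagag
Apoa4: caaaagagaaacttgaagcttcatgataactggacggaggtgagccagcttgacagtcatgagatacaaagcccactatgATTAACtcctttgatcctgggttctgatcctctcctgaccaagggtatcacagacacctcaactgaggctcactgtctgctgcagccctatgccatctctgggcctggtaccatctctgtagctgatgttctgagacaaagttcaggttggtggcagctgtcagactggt
Apob: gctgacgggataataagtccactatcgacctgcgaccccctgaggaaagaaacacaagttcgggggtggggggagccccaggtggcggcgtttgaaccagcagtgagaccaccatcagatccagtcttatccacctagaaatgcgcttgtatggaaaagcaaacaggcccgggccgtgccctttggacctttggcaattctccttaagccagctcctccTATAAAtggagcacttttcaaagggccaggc
The search covered 4 words on both strands: AGGTCA and GGGTCA, half-sites of nuclear receptors, GTTAAT, and TATAAA. The Apoa1 window held none of them. The Apob window held TATAAA 31 to 26 bases before the start. With those of Apoa2 (212 to 207 bases before the start) and Apoc3 (68 to 63 bases), 3 of the 10 windows held this word. It was in 11.9% of 21602 windows of protein-coding genes. Each start was that of the transcript tagged as canonical in the annotation. For Apoa2, Apoc3, Apoe, Apof and Apoh the window before it lay inside the annotated span of the gene. GTTAAT was found in 1 of the 10 windows, that of Apoa4 (170 to 165 bases before the start), and in 6.30% of all windows. AGGTCA was found in 2 of 10, those of Apoc3 and Apoh, and in 13.1% of all windows. GGGTCA was found in 0 of 10 and in 11.8% of all windows. The share of G and C was 60% in the Apoa1 window, 49.6% in that of Apoa4 and 54.8% in that of Apob, beside a median of 53.2%.

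Levels are given as TPM, transcript abundances scaled to the same total in every library and by gene length, so that levels can be compared between genes. TPM keep no read number, and the depth of each library is unknown. At least 1 TPM was reached by 12746 to 13219 genes in LSEC libraries and by 11450 to 11973 genes in non-EC libraries. The summed TPM of 10 endothelial markers was 914 to 1882 in the LSEC and 29.8 to 65.6 in the non-EC fraction. LSEC libraries held hepatic RNA as well, since 17 hepatic plasma proteins other than apolipoproteins summed to 3580.4 to 32610.3 TPM there, against 20182 to 43606 TPM outside the endothelial fraction. LSEC Brg1-ECko replicate 1 stood apart, with the highest plasma protein sum of the 12 LSEC libraries (32610, the others 9176 or less) and the lowest endothelial sum (914). Chd4 was 262 ± 20.1 TPM (SD, n = 3) in control and 215 ± 42.5 in Chd4-ECko and 249.1 ± 6.95 in double-mutant LSECs. Smarca4, the gene of BRG1, was 146 ± 13.4 in control and 132 ± 23.5 in Brg1-ECko and 133 ± 16.7 in double-mutant LSECs. Each of these mutant groups overlapped the controls. TPM per gene do not separate floxed from other exons, and the LSEC fraction also held RNA of other cells, so these values do not check the deletions. By quantitative PCR, the study found both transcripts lower in the matching mutants, in LSECs picked by LYVE1 at E12.5.

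In control non-EC cells, Apoe (1519 ± 152 TPM, SD, n = 3), Apoa1 (1395 ± 100.1) and Apoa2 (1229 ± 117) had the highest levels of the 10 genes. The libraries of Apoe overlapped those of Apoa1, and those of Apoa1 overlapped those of Apoa2. Apom, the carrier of sphingosine 1-phosphate on HDL, was next at 416 ± 39.6 TPM, followed by Apob at 137 ± 44.9. Apoh, a phospholipid-binding plasma glycoprotein, was at 61.5 ± 3.78 TPM. Apof, an inhibitor of lipid transfer between lipoproteins, was at 49.9 ± 5.57 and Lcat at 38.2 ± 4.59. From Apoa2 down to Lcat, no neighbours in this order had overlapping control libraries.

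Apoa4, an apolipoprotein of intestinal lipoproteins, and Apoc3, an inhibitor of triglyceride clearance, were near 0. Apoa4 was at most 0.265 TPM in non-EC and 0.511 TPM in LSEC libraries, and it was listed at 0 in 6 and 7 of the 12 libraries. Apoc3 ran from 0.136 to 1.24 TPM in non-EC libraries and was at most 0.796 TPM in LSECs. Apoa5, the remaining gene of the chromosome 9 cluster, did not exceed 1.32 TPM. The levels in this cluster were thus far apart, since Apoa1 was at 1295 TPM or more in every non-EC library. Apoa4 and Apoc3 did not reach 1 TPM in 3 libraries and were not tested, which left 8 of the 10 genes in every comparison.

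The main question put to the non-EC libraries was whether loss of the remodelers from the endothelium came with other levels of these genes in the remaining liver cells. Apoa1, Apoa2, Apoe, Apof, Apom and Lcat rose in both single mutants, 1.63-fold to 2.03-fold with Chd4 deleted and 1.80-fold to 2.20-fold with Brg1 deleted. In Brg1/Chd4-ECdko 2 genes rose, Apoa2 by 0.58 and Apof by 0.63 on the log2 scale. Apob and Apoh passed the test in none of the 3 comparisons, and no gene of the 10 passed in the downward direction. Differences are log2 fold changes of TPM + 1, tested with limma in the 12 non-EC libraries, and a gene passed at an adjusted p under 0.05 over 12223 genes.

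In Chd4-ECko, 6 of the 8 tested genes passed upward, where 6.17% of all tested genes did. In Brg1-ECko 6 of 8 passed, where 8.91% of all did, and in Brg1/Chd4-ECdko 2 of 8 passed, where 0.565% of all did. The 2 calls of Brg1/Chd4-ECdko changed with single libraries. They came to 0 when any of 7 libraries was left out (each of the 3 double mutants, control replicates 1 and 2, Chd4-ECko replicate 2 or Brg1-ECko replicate 3). Of all genes 0.0656% passed upward without the double-mutant replicate 3, 0.0246% without Chd4-ECko replicate 2 and 0.0% without any 1 of the other 5. The calls came to 1 without control replicate 3 (0.115% of all genes) or Brg1-ECko replicate 1 (0.385%), and to 4 without Chd4-ECko replicate 1 (1.32%). With a covariate for long transcripts, added after seeing the data and described with Apob, 6 of 8 passed, and 4.37% of all genes. The 8 log2 fold changes had a median of 0.87 for Chd4-ECko, 1.03 for Brg1-ECko and 0.52 for the double mutants, beside 0.01, 0.02 and 0.01 over all tested genes. The 3 comparisons share the control libraries. With a log2 fold change over 1 also required, as the study did for its differentially expressed genes, Apom passed in Chd4-ECko (0.434% of all genes), Apoa1, Apoa2, Apom and Lcat passed in Brg1-ECko (1.19%), and 0 of 8 passed in Brg1/Chd4-ECdko (0.115%). Libraries of mutant and control did not overlap, with the mutant higher, for 7 genes of Chd4-ECko (15.8% of all), 7 of Brg1-ECko (21.9%) and 6 of the double mutants (16.0%).

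**Figure D1:**
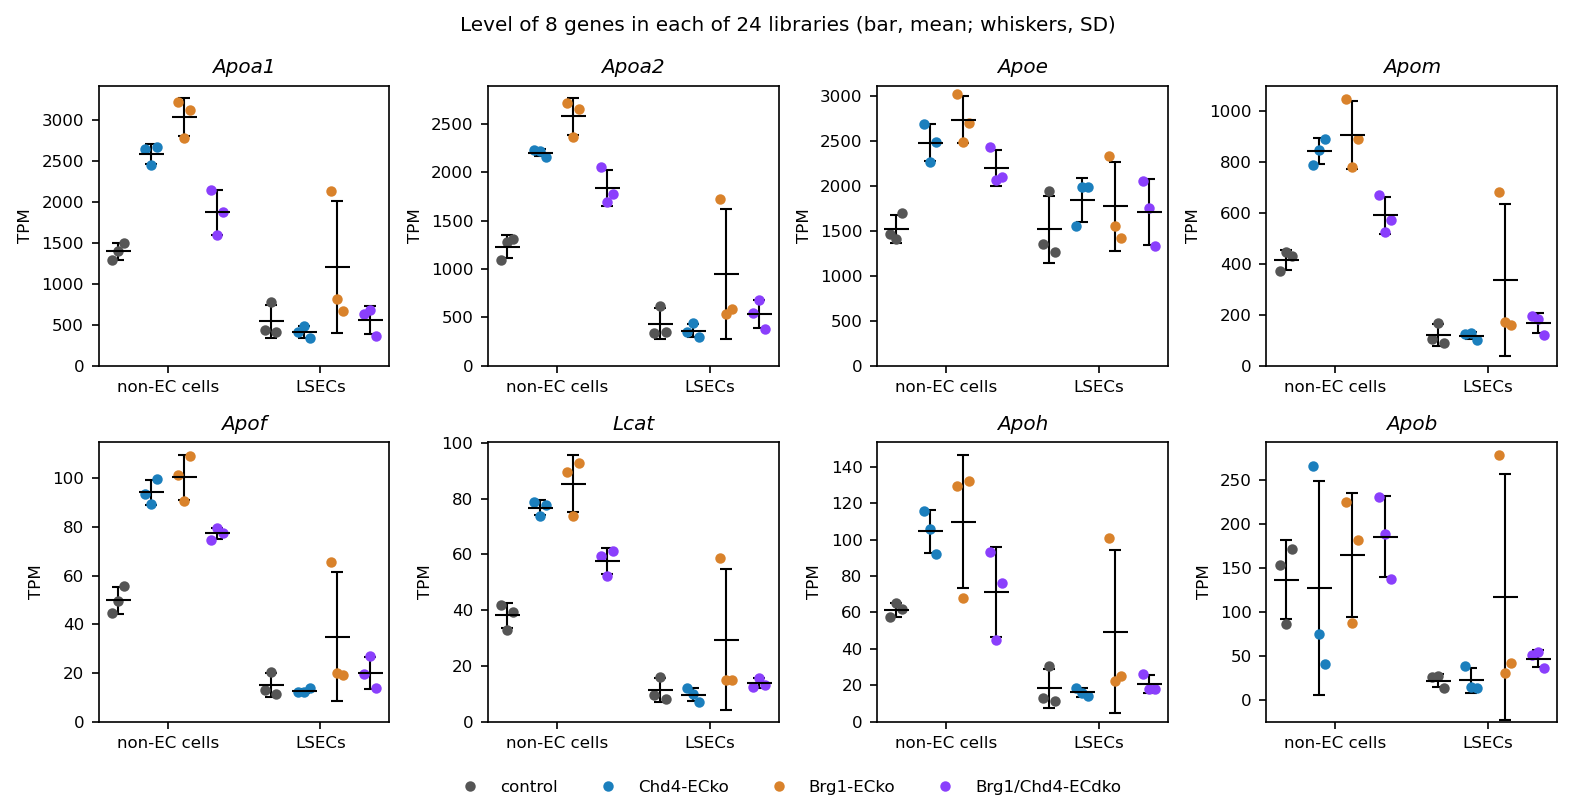
TPM of the 8 tested genes in each library, in non-EC cells and in LSECs. Points are single libraries of each genotype, with the mean and SD of the 3 libraries. In non-EC cells all 9 mutant libraries lie above the 3 controls for Apoa1, Apoa2, Apoe, Apof, Apom and Lcat, and in LSECs Brg1-ECko replicate 1 is the highest library for all 8 genes.

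Apoa1, the defining protein of HDL, was at 1295, 1397 and 1495 TPM in control non-EC cells. Chd4-ECko libraries held 2642, 2451 and 2675 TPM, Brg1-ECko libraries 3216, 2781 and 3126 and double-mutant libraries 2146, 1597 and 1876. Every mutant library was above every control, and all Brg1-ECko libraries were above all double mutants. The log2 fold change was 0.89 (SE 0.12, adjusted p = 0.00425 with limma) in Chd4-ECko and 1.12 (SE 0.12, adjusted p = 0.00117) in Brg1-ECko. In Brg1/Chd4-ECdko it was 0.42 and did not pass (95% interval 0.16 to 0.67, adjusted p = 0.13 with limma).

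Apoa2, the second protein of HDL, was at 1096, 1279 and 1314 TPM in the control libraries. Chd4-ECko libraries held 2232, 2217 and 2160.4 TPM, Brg1-ECko libraries 2718, 2363 and 2654 and double-mutant libraries 2051, 1691 and 1775. No mutant library reached down to the controls. Its log2 fold changes were 0.85, 1.07 and 0.58 in the same order of mutants, and all passed (adjusted p = 0.00425, 0.00102 and 0.0466 with limma).

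Apom was at 371, 447 and 429.6 TPM in the control libraries. Chd4-ECko libraries held 790.3, 847 and 892 TPM, Brg1-ECko libraries 1049, 779 and 892 and double-mutant libraries 672, 527 and 573. It was 2.03-fold higher in Chd4-ECko and 2.17-fold higher in Brg1-ECko (adjusted p = 0.00425 and 0.00128 with limma). The double mutants stood between controls and single mutants, with a log2 difference from control of 0.50 that did not pass (adjusted p = 0.0982 with limma).

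Lcat, the enzyme among the 10 genes, was at 42.0, 33.1 and 39.4 TPM in controls. Chd4-ECko libraries held 78.8, 73.6 and 77.8 TPM, Brg1-ECko libraries 89.7, 73.7 and 92.8 and double-mutant libraries 59.5, 52.3 and 61.1. The groups of controls, double mutants and single mutants followed each other without overlap. The log2 fold changes were 0.99 (SE 0.11, adjusted p = 0.0039 with limma) and 1.14 (SE 0.11, adjusted p = 0.00102) in Chd4-ECko and Brg1-ECko. That of Brg1/Chd4-ECdko was 0.59 (adjusted p = 0.0512 with limma) and just missed the threshold.

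Apof was at 44.5, 49.7 and 55.6 TPM in the control libraries. Chd4-ECko libraries held 93.5, 89.2 and 99.4 TPM, Brg1-ECko libraries 101, 90.4 and 109 and double-mutant libraries 74.7, 79.5 and 77.6. It rose in all 3 mutants, by 0.91, 0.99 and 0.63 on the log2 scale (adjusted p = 0.0033, 0.00102 and 0.0348 with limma).

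Apoe, the ligand by which remnant particles are taken up, was at 1461, 1404 and 1692 TPM in the control libraries. Chd4-ECko libraries held 2680.2, 2268 and 2489 TPM, Brg1-ECko libraries 3014, 2489 and 2698 and double-mutant libraries 2425, 2058 and 2099.6. All mutant libraries were above the controls, and its folds were the smallest of the 6 genes that passed in the single mutants. The log2 fold changes were 0.71 (adjusted p = 0.0078 with limma) and 0.85 (adjusted p = 0.00176) for the single mutants, and that of the double mutants, 0.53, did not pass (adjusted p = 0.06).

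Apoh was at 57.7, 65.2 and 61.6 TPM in the control libraries. Chd4-ECko libraries held 116, 106 and 91.9 TPM, Brg1-ECko libraries 129.5, 67.8 and 132 and double-mutant libraries 93.1, 44.7 and 76.4. Replicate 2 was the lowest library of Brg1-ECko and of Brg1/Chd4-ECdko, and in the latter it lay below all controls. The log2 differences of 0.75, 0.77 and 0.15 did not pass (adjusted p = 0.0902, 0.0981 and 0.944 with limma). Without non-EC Brg1-ECko replicate 2, Apoh passed in Brg1-ECko (log2 1.08, adjusted p = 0.0194 with limma), where 8.46% of all genes passed upward.

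Of the 8 tested genes Apob varied most between libraries. Its control libraries held 153, 86.4 and 172 TPM. Chd4-ECko libraries held 266, 75.0 and 41.8 TPM, and their replicates 1 and 3 were the highest and the lowest of all 12 non-EC libraries. Brg1-ECko libraries held 225, 88.1 and 182 TPM and double-mutant libraries 231, 189 and 138. All groups overlapped the controls. The log2 differences were -0.47 (95% interval -1.73 to 0.78), 0.22 (-1.04 to 1.48) and 0.46 (-0.79 to 1.72). The first ran from -1.22 to 0.10 with a library left out: it was 0.10 without Chd4-ECko replicate 3, and -1.22 without Chd4-ECko replicate 1, where it passed (adjusted p = 0.0399 with limma), as did 22.2% of all genes downward. The Apob transcript is 13934 bases long, and the other 9 transcripts have 518 to 2434 bases. Long transcripts as a class varied between the same libraries. For 750 genes with a transcript of at least 8000 bases, the median log2 deviation from the gene's mean was 0.23, -0.28 and -0.51 in the 3 Chd4-ECko libraries. Controls had 0.22, -0.09 and 0.22, Brg1-ECko libraries 0.05, -0.21 and -0.02, and double mutants 0.19, 0.25 and 0.08. With this deviation as a covariate, chosen after seeing the data, Apob passed upward in Chd4-ECko (0.63, adjusted p = 0.0239 with limma) and in Brg1-ECko (0.86, adjusted p = 0.00175), where 10.9% and 16.4% of all genes did. The cause of the deviation was not tested.

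**Figure D2:**
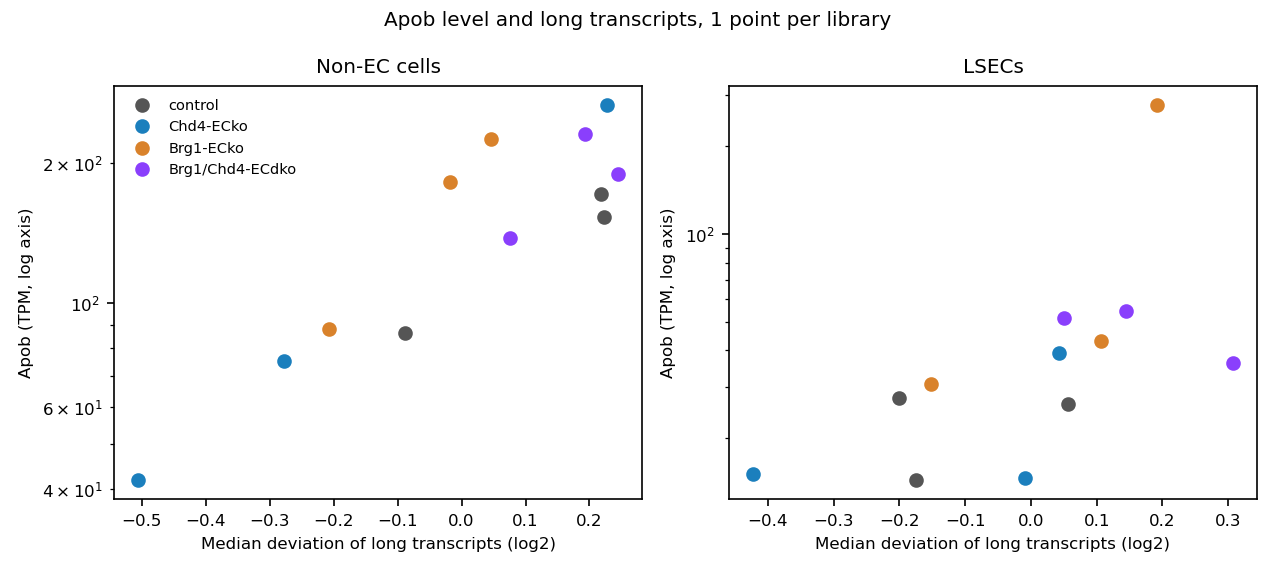
Apob TPM on a log axis against the median log2 deviation of genes with transcripts of at least 8000 bases (750 genes in non-EC cells, 873 in LSECs), with 1 point per library. In non-EC cells Chd4-ECko replicate 3 has the lowest deviation (-0.51) and the lowest Apob level (41.8 TPM).

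Over the 9 mutant and 3 control non-EC libraries, the exact two-sided permutation test gave p = 0.00455 for each of Apoa1, Apoa2, Apoe, Apof, Apom and Lcat, the smallest p that the 220 arrangements allow. The same exact test gave p = 0.0909 for Apoh and p = 0.645 for Apob. In the limma contrast of the mean of the 3 mutants with control, 6 of 8 genes passed upward, where 8.64% of all tested genes did. For these 6 all 9 mutant libraries lay above all controls, which held for 8.33% of all genes. Comparisons of 3 libraries with 3 cannot give an exact p under 0.1.

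Between the mutants no gene of the 10 passed. Against Brg1-ECko, Brg1/Chd4-ECdko was lower without overlap for 6 of 8 genes (14.6% of all genes), and 7 of 8 had an unadjusted p under 0.05, as did 1558 of the 12223 genes. Apoa1 had a log2 difference of -0.71 there (95% interval -0.96 to -0.45, adjusted p = 0.216 with limma). Against Chd4-ECko, the double mutants were lower without overlap for 5 of 8 genes (7.12% of all genes), and 5 had an unadjusted p under 0.05, as did 2668 of all. The share of all genes that passed was 0.0% in both. Chd4-ECko and Brg1-ECko gave 0 genes of the 8 and 0.0% of all genes, and 0 of 8 and 354 of all at an unadjusted p under 0.05. Their largest difference was -0.69 for Apob (95% interval -1.95 to 0.56). In Apoa1 it was -0.23 (-0.48 to 0.02). Without non-EC Chd4-ECko replicate 1, the double mutants were lower than Chd4-ECko for Apoa1, Apom and Lcat (10.3% of all genes) and higher for Apob (22.1%).

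**Figure D3:**
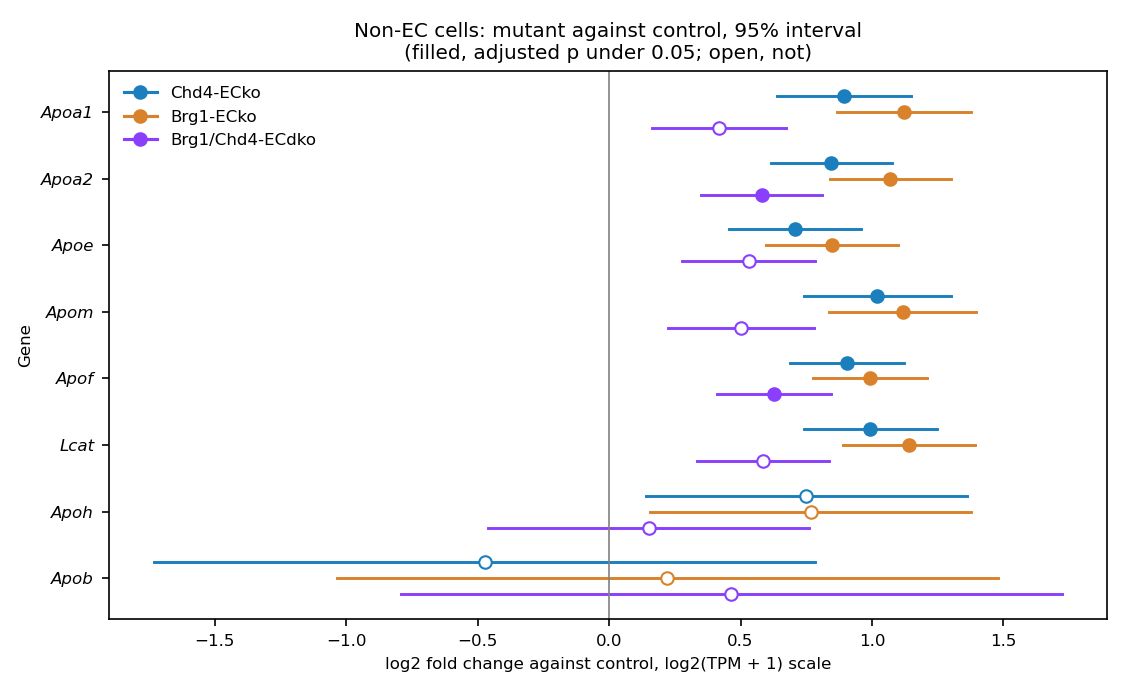
Log2 fold changes of TPM + 1 of the 8 tested genes against control in non-EC cells, for each mutant. Points are estimates with their 95% intervals from limma, filled where the adjusted p is under 0.05. In non-EC cells the intervals of Apoa1, Apoa2, Apoe, Apof, Apom and Lcat lie above 0 in all 3 mutants, while those of Apob span 0.

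In control livers the genes differed between the fractions. Of the 8 tested genes 7 were lower in LSECs than in non-EC cells, without overlap, where 35.8% of 13775 genes were lower at an adjusted p under 0.05 and 40.2% were lower without overlap. Apoa1 was 2.68 times, Apom 3.57 times and Apob 5.81 times lower. Lcat was at 9.75, 16.2 and 8.12 TPM in control LSECs, against 42.0, 33.1 and 39.4 in control non-EC cells (log2 difference -1.71, adjusted p = 0.000134 with limma). The hepatic plasma proteins were lower for 17 of 17 genes, with a median of -1.90, beside -1.70 for the 8 genes and -0.09 for all genes tested.

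Apoe was the exception. It was at 1350.3, 1941 and 1258 TPM in control LSECs and at 1461, 1404 and 1692 in control non-EC cells. The groups overlapped, with a log2 difference of -0.02 (95% interval -0.42 to 0.37, adjusted p = 0.915 with limma), and with TPM rescaled without mitochondrial and globin genes it was 0.24. Mitochondrial genes took 13.9% to 31.5% of TPM in LSECs and 2.33% to 7.69% in non-EC cells. Its neighbours Apoc1, Apoc2 and Apoc4, which modulate the clearance of lipoproteins, had log2 differences of -1.12, -1.45 and -0.84. Apoe is also made by macrophages. The summed TPM of 11 macrophage and myeloid markers was 755 to 883 in control LSECs and 355 to 746 in control non-EC cells. These markers went both ways: 8 of the 11 were higher in control LSECs, as were 46.2% of all tested genes. Their log2 differences ran from -6.80 to 4.18, with a median of 1.07. The sum of 10 stellate and mesenchymal markers was 1603 to 2089.8 TPM in control LSECs and 60.7 to 117 in control non-EC cells. The part of macrophages and of stellate and mesenchymal cells in the Apoe level was not tested.

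In LSECs no gene of the 10 passed against control in any mutant. Of 13444 genes 0.707% passed for Chd4-ECko, 0.0223% for Brg1-ECko and 0.87% for the double mutants. At an unadjusted p under 0.05 there were 0, 7 and 0 of the 8 genes, beside 872, 1302 and 1632 of all. Those 7 were in Brg1-ECko, whose replicate 1 was the highest LSEC library for all 8 genes. Apoa1, for example, was at 2132, 814 and 669 TPM in Brg1-ECko LSECs and at 441, 774 and 409 in controls. Without that library its log2 difference went from 1.02 to 0.51, that of Apob from 1.68 to 0.71 and that of Apom from 1.19 to 0.51. Apob was at 278, 30.8 and 42.9 TPM in Brg1-ECko LSECs and at 51.8, 54.6 and 36.3 TPM in Brg1/Chd4-ECdko LSECs. Both groups lay above all controls (26.2, 27.4 and 14.4). With the mean log2 level of other hepatic plasma protein genes as a covariate, added after seeing the data, the median difference of the 8 genes in Brg1-ECko LSECs went from 1.04 to 0.00, and that of Apob from 1.68 to 0.07.

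Whether a mutant effect differed between the fractions was tested as an interaction over all 24 libraries, taken as independent. Both fractions were split from digested livers, and whether libraries of 1 genotype and number share embryos is not given in the sources used here. Their consensus correlation was 0.162, and with it in the fit the interaction passed for 0 of 8 genes in each mutant. Without it, as fitted here, it also passed for 0 of 8 genes in each mutant, beside 1.02% of 13775 genes for Chd4-ECko, 1.04% for Brg1-ECko and 0.0581% for Brg1/Chd4-ECdko. At an unadjusted p under 0.05 there were 4, 1 and 0 of the 8 genes, and 2627, 2459 and 1043 of all. For Apoa1 it was -1.24 in Chd4-ECko (95% interval -2.16 to -0.31, adjusted p = 0.164 with limma). Without LSEC Brg1-ECko replicate 1, 3 interactions passed, those of Apoa1, Apof and Lcat for Chd4-ECko, beside 2.67% of all genes.

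Other genes of lipoprotein metabolism were read from lists chosen with earlier results in view. Their counts stand beside the 6.17%, 8.91% and 0.565% of all tested genes that rose with Chd4, Brg1 or both deleted. Of 8 tested genes for other apolipoproteins and HDL proteins, 4 rose with Chd4 deleted, 5 with Brg1 deleted and 0 with both deleted, with medians of 0.54, 0.69 and 0.34. Apoc1, Apoc2 and Apoc4, the neighbours of Apoe, rose in both single mutants (Apoc2 by 0.96 and 1.10, adjusted p = 0.00839 and 0.0026 with limma). Clu, an extracellular chaperone found on HDL, rose by 0.57 and 0.63. Of 13 genes for assembly and secretion of lipoproteins, 4, 5 and 0 rose. Mttp, which loads lipid onto APOB, rose in Brg1-ECko (0.91, adjusted p = 0.0169 with limma) and was at 0.70 in Chd4-ECko (adjusted p = 0.0538). Dgat2, an enzyme of triglyceride synthesis, rose in both (0.85 and 0.97).

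Of 8 tested genes for remodelling of lipoproteins, 2, 4 and 1 rose, beside the same shares of all genes. Angptl8, a regulator of lipoprotein lipase, rose in all 3 mutants (1.09, 1.13 and 0.85), and Lipc, the hepatic lipase, in both single mutants (0.77 and 0.88). Pltp, the phospholipid transfer protein, rose in Brg1-ECko (1.02, adjusted p = 0.0285 with limma) and was higher in control LSECs than in control non-EC cells by 1.70. Scarb1, the HDL receptor, did not pass in either single mutant (0.41 and 0.24).

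Of 11 tested regulators of apolipoprotein genes, 5, 5 and 0 rose, where 6.17%, 8.91% and 0.565% of all genes did. They included the hepatic transcription factors Hnf4a (0.81 with Chd4 deleted and 0.96 with Brg1 deleted) and Cebpa (0.75 and 0.97). Other genes of hepatic cells rose too. Of 17 hepatoblast identity genes, some of which are also among the regulators, 8, 9 and 1 rose. Of the 17 hepatic plasma proteins, 14, 17 and 2 rose, with medians of 0.80, 0.89 and 0.56, beside 0.87, 1.03 and 0.52 for the 8 genes. Afp, the fetal counterpart of albumin, rose by 0.67 and 0.74. Alb rose in Brg1-ECko (0.75, adjusted p = 0.0435 with limma) and was at 0.58 in Chd4-ECko (adjusted p = 0.0885). The summed TPM of the plasma proteins was 20182 to 22352 for control, 30400.1 to 41643 for Chd4-ECko, 28917 to 43606 for Brg1-ECko and 26289 to 34818 for double-mutant non-EC libraries.

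The levels were also read relative to Afp. Apoa1 was at 16.6 to 17.8 TPM per 100 TPM of Afp in control non-EC libraries, 16.7 to 22.7 for Chd4-ECko, 19.4 to 26.4 for Brg1-ECko and 15.1 to 16.4 for the double mutants. For Apoa1 only Brg1-ECko lay wholly above the controls, and the double mutants lay wholly below them. In Brg1-ECko, Apoa2, Apom and Lcat per Afp also lay above the controls, and Apob, Apof and Apoh overlapped them. In the double mutants Apoh lay below the controls (0.42 to 0.68 against 0.72 to 0.83), and Apoa2, Apob, Apof, Apom and Lcat overlapped them. Apoe was at 17.9 to 19.9 in controls and 17.0 to 21.2, 18.2 to 23.6 and 17.8 to 19.4 in the 3 mutants, which all overlapped the controls. With the mean log2 level of the plasma protein list as a covariate, added after seeing the data, 2 of the 8 genes passed upward in Chd4-ECko (Apof at 0.75 and Lcat at 0.63), where Apob passed downward at -3.18. Of all genes 6.77% passed upward and 13.8% downward there. In Brg1-ECko and Brg1/Chd4-ECdko 0 of 8 passed with it, and 0.0818% and 0.106% of all genes. The medians of the 8 genes went from 0.87 to 0.50, from 1.03 to 0.66 and from 0.52 to 0.21. With the hepatoblast identity list as the covariate, 6 of 8 genes passed upward and Apob downward in each single mutant (Apob at -2.00 and -1.72), and 0 passed in the double mutants. Of all genes 17.0% and 14.8% passed upward and 25.0% and 21.2% downward in the single mutants, and 0.115% passed in the double mutants. In non-EC cells the sums of both lists did not overlap between control and mutant libraries. They were at most 22352 and 797 TPM in controls and at least 26289 and 1031 TPM in mutants. Both fits therefore compare genotypes at list levels they did not share, and cannot separate the covariate from the genotype. Without a covariate the Apob libraries of every mutant overlapped the controls.

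Blood cells of the mixture were read by their markers. Of 12 erythroid genes, 2 fell with Chd4 deleted, 4 with Brg1 deleted and 0 with both deleted, where 3.31%, 2.76% and 0.0164% of all tested genes fell. The medians were -0.10, -0.83 and -0.40. Their sum was 3602 to 11157 TPM in control, 3682 to 11864 for Chd4-ECko, 2145 to 4821 for Brg1-ECko and 3329 to 6115 for double-mutant libraries, with overlap of all mutants and controls. Tfrc, the transferrin receptor of erythroid precursors, fell by 1.33 and 1.16 on the log2 scale in Chd4-ECko and Brg1-ECko. None of the tested macrophage, megakaryocyte and endothelial markers passed in the 3 comparisons, and of 9 tested stellate and mesenchymal markers Dcn rose in Chd4-ECko. All 9 had a positive log2 difference in each mutant, with medians of 0.65, 0.47 and 0.29 for these differences. The summed TPM of the list was 60.7 to 117 in control, 109 to 218 for Chd4-ECko, 109 to 171 for Brg1-ECko and 115 to 149.7 for double-mutant libraries. The part of the makeup of the mixture in the apolipoprotein levels was not tested.

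**Figure D4:**
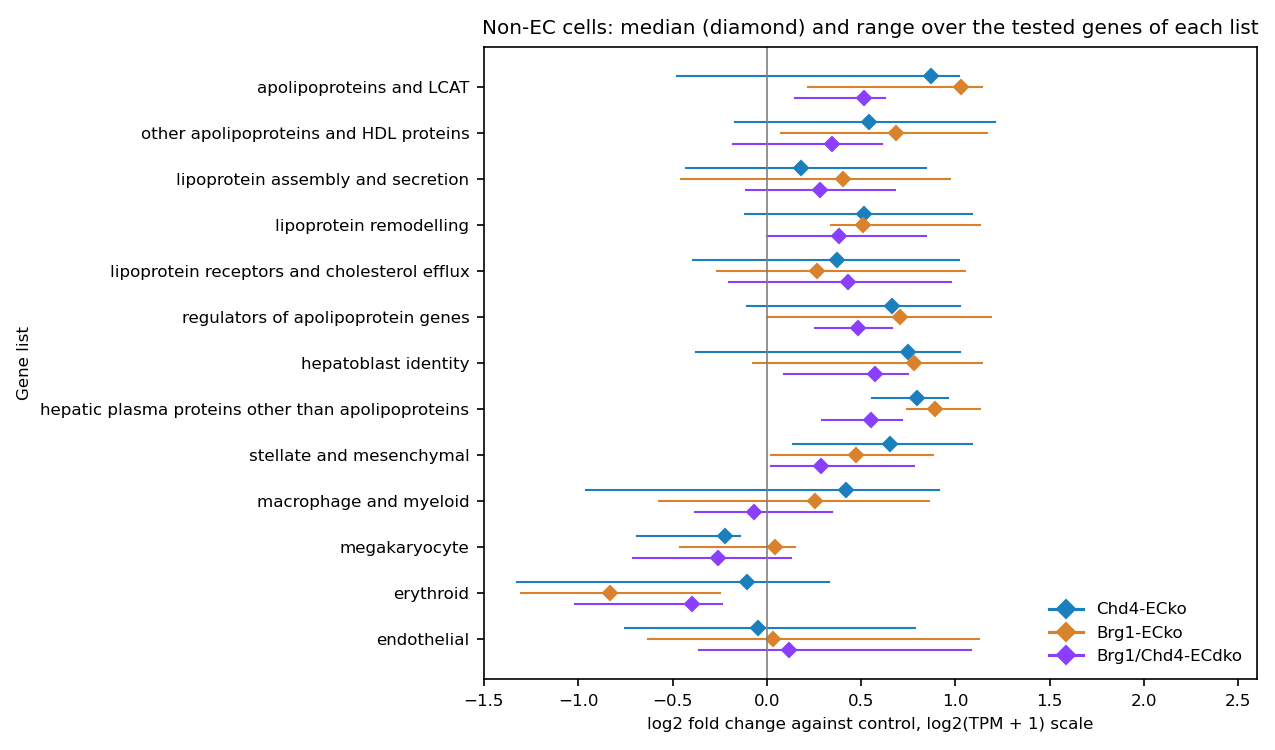
Log2 fold changes against control in non-EC cells for each gene list and mutant. Diamonds are the median over the tested genes of a list and lines run from the lowest to the highest gene. The medians of the apolipoproteins and LCAT (0.87, 1.03 and 0.52) lie near those of the other hepatic plasma proteins (0.80, 0.89 and 0.56), and those of the erythroid list lie below 0.

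The genes most like the 8 tested ones across all 24 libraries were found by the root mean square difference between a gene's centred log2 levels and the mean profile of the 8, over 10225 genes. The 10 nearest were Cpb2 (0.102), Bhmt2 (0.111), Serpinc1 (0.127), Ftcd (0.127), Proc (0.131), Hpn (0.131), Maob (0.132), Rbp4 (0.132), Glyctk (0.135) and Mst1 (0.138). Among the 8 themselves, Apoa2 was nearest to their mean profile (0.149) and Apob (0.648) and Apoe (0.797) were the farthest. Cpb2 encodes a plasma carboxypeptidase that limits fibrinolysis, Serpinc1 encodes antithrombin, and Rbp4 encodes the plasma carrier of retinol.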

How the data were processed

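RNA was sequenced from 24 libraries of CD146+ LSECs and non-EC liver cells. Per the labels and the study's methods, livers were digested with transcription inhibitors present, red cells were lysed, poly-A RNA was selected, and reads were aligned to GRCm39 (mm39) in CLC Genomics Workbench. The authors deposited TPM per gene, so no read count was available and count models were not used. The study's methods give a nominal read number, but the depth of each library and its precision are unknown. TPM share 1 total per library, so a large change in a few abundant genes moves all others. The table also holds 8 columns of the authors' group means, which were not used.

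Values were analysed as log2(TPM + 1) with limma 3.58.1 in R 4.3.3: genes with at least 1 TPM in 3 libraries, group means, empirical Bayes with a trend, two-sided, Benjamini-Hochberg adjustment over all tested genes. Comparisons within a fraction used its 12 libraries, and comparisons of fractions all 24. Exact permutation tests enumerated every arrangement of the libraries in Python 3.11.15 with numpy 2.4.6. On data simulated for non-EC Chd4-ECko against control (12223 genes, 200 of them changed), 70.5% of changes of log2 1 and 93.0% of 1.5 were recovered, with 10 and 13 unchanged genes also called, and 0 genes were called when none was changed. The simulated noise was independent between genes, so it held no deviation shared by many genes of a library, such as that of long transcripts. These rates therefore need not hold for the libraries read here.

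The genes and lists were chosen with earlier results of these data known. Besides the 10 genes, the text names from each list at most the 4 passing genes with the smallest p, 13 further genes whatever their value, and the 10 genes of at least 5 TPM nearest to the mean profile. Some genes that this rule names are not reported here. Nothing in the labels says which replicate numbers share a litter, and the p-values measure the spread between these embryos. Genome positions are from GENCODE vM39, which held 25335 of the 25361 gene IDs. Alternatives were the pseudocount (0.1), the filter (none, or a mean of 5 TPM), quantile normalization, rescaling without mitochondrial and globin genes, no trend, the replicate number as a block, a fit of 2 groups alone, each library left out, and 3 covariates.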

Additional observations from a re-analysis of the deposited data

How the results depend on the processing

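Counts of genes past the threshold stayed within 1.5 times in 283 repeats and moved further in 29. The 6 genes that passed in Chd4-ECko non-EC cells became 3 with the plasma protein covariate, 2 of them higher and Apob lower, and 1 with the fold threshold, and the 6 of Brg1-ECko became 0 with that covariate. For all mutants the 6 became 0 with the plasma protein covariate and 0 with the fold threshold. The 2 genes of Brg1/Chd4-ECdko became 6 with the long-transcript covariate, 1 with no filter, with no trend, with the 2 groups alone or without mitochondrial and globin genes (0.195% to 0.445% of all genes), and 0 with the hepatoblast covariate, the plasma protein covariate or the fold threshold, and ran from 0 to 4 with a library left out. Between Brg1/Chd4-ECdko and Chd4-ECko the 0 genes became 4 with the hepatoblast and 3 with the plasma protein covariate (Apob higher, where 12.3% and 16.0% of all genes were, and the others lower, where 3.4% and 6.23% were), and 0 to 4 with a library left out. In LSECs the 0 genes of Brg1/Chd4-ECdko became 1 (Apob, higher, as were 2.05% of all genes) with the 2 groups alone, and the 0 interactions became 0 to 3 with a library left out. The plasma protein and long-transcript covariates were added after seeing the data. Same-numbered libraries had a mean correlation of 0.171 in LSECs and 0.127 in non-EC cells (lowest -0.04 and -0.33, with 13 and 10 of 18 pairs over 0.1), and differently numbered ones -0.09 and -0.07 (8 of 36 pairs in each). Since not every same-numbered pair was over 0.1, the numbers were not taken as pairs. With the replicate block 4 genes passed in Brg1/Chd4-ECdko, where 2.38% of all genes passed upward, and no other count moved by over 1.5 times.

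Single values that reversed were mostly those of Apob and Apoh. Apob in non-EC Chd4-ECko was 0.63 with the long-transcript covariate and -1.22 to 0.10 with a library left out. In Brg1-ECko it was -1.72 with the hepatoblast and -2.95 with the plasma protein covariate, and -0.0800 to 0.62 with a library left out. In Brg1/Chd4-ECdko it was -1.11 and -1.48 with these covariates, and for all mutants -1.61 and -2.54, with -0.23 to 0.26 when a library was left out. Apoh with the plasma protein covariate was -0.55 in Chd4-ECko, -0.75 in Brg1-ECko, -0.78 in Brg1/Chd4-ECdko and -0.69 for all mutants. In Brg1/Chd4-ECdko it was -0.36 with the hepatoblast covariate and -0.0702 to 0.45 with a library left out. In Brg1-ECko LSECs the plasma protein covariate gave -0.0213 for Apoa2, -0.21 for Apoe, -0.0234 for Apoh and -0.0022 for Lcat, and Apoe was -0.15 with the hepatoblast covariate and -0.0026 to 0.41 with a library left out. Apoe in control LSECs against control non-EC cells was 0.34 after quantile normalization, 0.24 without mitochondrial and globin genes and -0.22 to 0.10 with a library left out. In non-EC cells the sums of the plasma protein and hepatoblast lists did not overlap between controls and mutants, so fits with these covariates cannot separate them from the genotype. The causes were not tested.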
